A study of Mus musculus with 9 samples.

Results

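The 6 genes described here set how a fat cell obtains glycerol 3-phosphate and moves glycerol: the glycerol channel Aqp7, glycerol kinase (Gyk), the cytosolic and mitochondrial glycerol 3-phosphate dehydrogenases Gpd1 and Gpd2, and the cytosolic and mitochondrial phosphoenolpyruvate carboxykinases Pck1 and Pck2. They were chosen by symbol, 6 of 22527 in the table, and each was present on 1 line. The study measured ribosome-bound mRNA in brown (BAT), inguinal white (iWAT, subcutaneous) and epididymal white (eWAT, visceral) adipose tissue of C57BL/6 mice aged 8 weeks, with 3 libraries per depot. All groups carry the genotype label wild type and had no treatment in the labels, and all were pulled down with an antibody against GFP; the labels do not say which cells carried a GFP-tagged ribosome. They also do not say whether the 3 libraries of a depot came from separate mice, so p-values measure the spread between libraries, which may be technical.

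Triglyceride is built on glycerol 3-phosphate and broken down to fatty acids and glycerol. White adipocytes are known for little glycerol kinase, so that glycerol released by lipolysis largely leaves the cell, through aquaporin 7 among other routes, and the backbone is remade from glucose or from pyruvate and lactate. The latter route, glyceroneogenesis, runs through phosphoenolpyruvate carboxykinase and Gpd1. Brown adipocytes are known for higher glycerol kinase, and Gpd2 together with Gpd1 forms the glycerol phosphate shuttle, which passes cytosolic reducing power to the respiratory chain.

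Values are FPKM, a level per transcript length, and differences are on the log2(FPKM + 1) scale with their SE from limma, which understates the change of low genes. Read totals were estimated at 11.1 to 21.3 M for BAT, 2.91 to 4.65 M for iWAT, 16.0 M for eWAT 1 and 4.46 and 4.61 M for eWAT 2 and 3, so depth and depot cannot be told apart between BAT and iWAT. The library iWAT 1 correlated at 0.945 to 0.963 with the eWAT libraries and at 0.899 and 0.934 with iWAT 2 and 3 (log2 values, across genes). The library BAT 3 is brown by title but inguinal by its tissue field. Its Ucp1, the brown fat uncoupling protein, was at 3054 FPKM, and the highest white library had 3.38. Of the fixed markers, 4 adipocyte genes summed to 23526 to 28521 FPKM in BAT, 31017 to 47688 in iWAT and 41665 to 58382 in eWAT. The 5 macrophage markers summed to 0.486 to 4.54 FPKM and the 5 endothelial markers to 1.32 to 6.04, near 0 in each depot. Muscle markers (5 genes) summed to 59.9 to 149 FPKM in BAT, 1155 to 1499 in iWAT and 226 to 837 in eWAT, and 6 epithelial markers to 23.2 to 48.2, 160.1 to 436 and 62.4 to 215. Stromal progenitor markers (4 genes) summed to 2.02 to 13.7, 76.3 to 339.8 and 34.1 to 65.8 FPKM. Brown adipocyte markers (3 genes) summed to 19454 to 21077 FPKM in BAT, to 472, 418 and 199.9 in iWAT 1 to 3 and to 57.0, 51.5 and 46.3 in eWAT 1 to 3, and 3 liver markers to at most 0.181 in BAT and 1.79 to 12.3 in white fat. Their part in the results below was not tested.

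In BAT, 5 of the 6 genes were higher than in either white depot, and only Pck2 was not called. Of all 10374 tested genes, 34.5% were called higher in BAT than in iWAT, 20.2% higher than in eWAT and 19.3% higher than in both. The median log2 difference of the 6 genes was 2.58 against iWAT and 2.38 against eWAT, beside 0.23 and -0.02 over all tested genes. Both comparisons use the same BAT libraries. The same 5 genes were wholly higher in BAT than in iWAT and than in eWAT. Of all tested genes, 38.5% were wholly higher in BAT than in iWAT and 32.0% than in eWAT, each depot taken separately. The share above all 6 white libraries at once was not computed. In ribosome-bound RNA pulled down from a tissue, fewer cells of a type and less RNA per cell cannot be told apart.

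**Figure D1:**
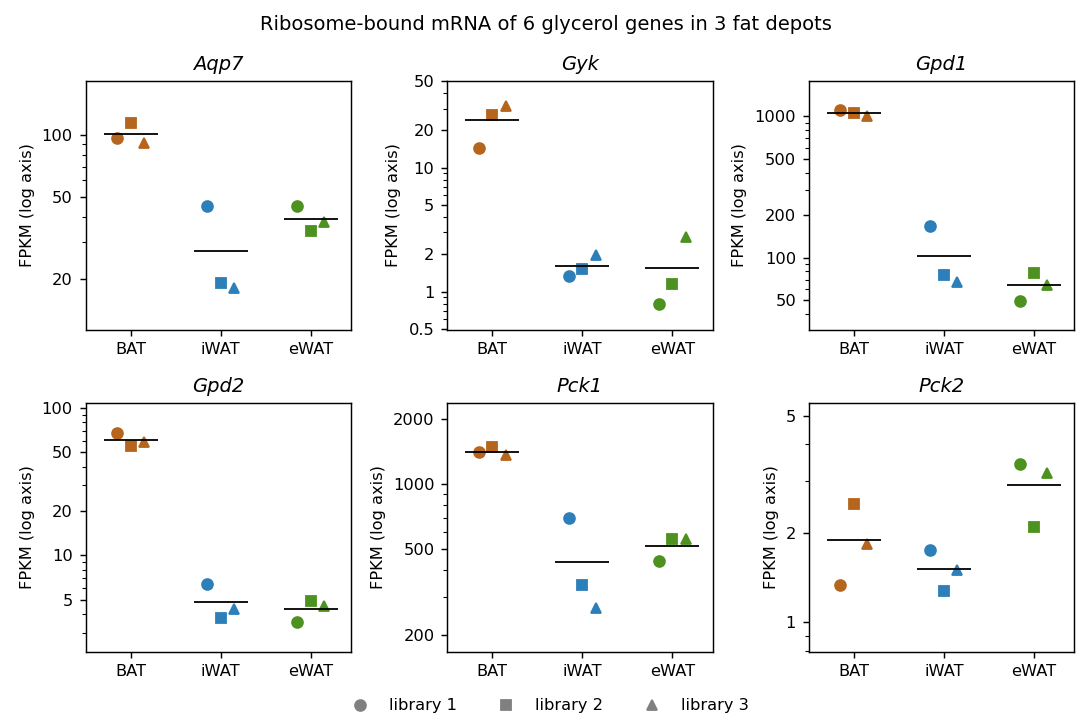
FPKM (log axis) of the 6 genes in each library, with circles, squares and triangles for libraries 1, 2 and 3 of a depot and a line at the mean (n = 3). The BAT points of Aqp7, Gyk, Gpd1, Gpd2 and Pck1 lie above each white point, as for Gyk with 14.5 FPKM or more in BAT and at most 2.74 in white fat, while Pck2 stays between 1.27 and 3.44 FPKM.

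Glycerol leaves and enters the cell through the channel Aqp7 (chromosome 4, 40980107 to 40995172, minus strand, protein-coding, build mm9). BAT 1 to 3 had 96.1, 114 and 91.4 FPKM, iWAT 1 to 3 had 45.1, 19.1 and 18.1, and eWAT 1 to 3 had 45.3, 34.1 and 37.5. All BAT libraries were above all white ones, and iWAT 1 stood at the level of eWAT, above iWAT 2 and 3. The difference was 1.96 (SE 0.33, limma adjusted p = 0.000871) against iWAT and 1.35 (SE 0.33, adjusted p = 0.00994) against eWAT. Against eWAT 1 alone, the white library of greatest depth, it was 1.13 and was not called (adjusted p = 0.188). The other glycerol channels of the list were low: Aqp3 and Aqp9 did not pass the filter, and Aqp11 had means of 3.19 ± 0.538 (BAT), 3.24 ± 1.50 (iWAT) and 3.91 ± 0.827 FPKM (eWAT; SD, n = 3) and was not called.

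Gyk (chromosome X, 82947276 to 83022158, minus strand), the enzyme that phosphorylates free glycerol, was at 14.5, 26.5 and 31.3 FPKM in BAT. The iWAT libraries had 1.33, 1.53 and 1.99 and the eWAT libraries 0.789, 1.16 and 2.74. The lowest BAT library, BAT 1, was 5.31 times the highest white one, and the white depots overlapped. The difference was 3.20 (SE 0.34, adjusted p = 6.67e-05) against iWAT and 3.30 (SE 0.34, adjusted p = 5.89e-05) against eWAT, and the means differed 14.9-fold and 15.4-fold. By the estimated depth and the longest coding transcript (4340 bases), the white values rest on about 21 to 52 reads per library and the BAT values on 667 or more, so order among white libraries is poorly resolved. In eWAT 1, with an estimated 16.0 M reads, Gyk was at 0.789 FPKM on about 52 reads, and the part of depth was not tested. Related kinase genes did not pass the filter: Gk5 was at most at 0.366 FPKM, Gk2 at most at 1.17, and Gykl1 was listed at 0 in all libraries.

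Both dehydrogenases of the shuttle were far higher in BAT. Gpd1 (chromosome 15, 99547946 to 99555436, plus strand), which interconverts dihydroxyacetone phosphate and glycerol 3-phosphate in the cytosol, was at 1111, 1052 and 1009.8 FPKM in BAT. The iWAT libraries had 167, 75.4 and 67.4 and the eWAT libraries 49.6, 77.9 and 64.2, with iWAT 1 the highest white library. The differences were 3.47 (SE 0.33, adjusted p = 3.80e-05) against iWAT and 4.05 (SE 0.33, adjusted p = 1.60e-05) against eWAT. Gpd2 (chromosome 2, 57090046 to 57223130, plus strand), the enzyme of the mitochondrial inner membrane that oxidises glycerol 3-phosphate, was at 67.3, 55.2 and 58.6 FPKM in BAT. White levels were 6.37, 3.76 and 4.37 (iWAT) and 3.56, 4.92 and 4.54 (eWAT). The groups were again apart, BAT from white, by 3.42 (SE 0.23, adjusted p = 7.20e-06) and 3.53 (SE 0.23, adjusted p = 4.50e-06). GENCODE vM1 places other gene models on the opposite strand within the spans of Gyk, Gpd1 and Gpd2, and with no strand setting given their reads cannot be told apart.

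Pck1 and Pck2, which make phosphoenolpyruvate from oxaloacetate in the cytosol and in mitochondria, parted. Pck1 (chromosome 2, 172978549 to 172984774, plus strand) read 1410.0, 1484 and 1363 FPKM in the BAT libraries, 700.4, 344 and 269 in those of iWAT, and 443, 561 and 557 in those of eWAT. Each BAT library was above each white one, and iWAT 1 stood above all other white libraries. The difference was 1.82 (SE 0.32, adjusted p = 0.00126) against iWAT and 1.45 (SE 0.32, adjusted p = 0.00639) against eWAT. Against eWAT 1 alone it was 1.68 (adjusted p = 0.0629). With quantile normalization, which moved the median of all genes against iWAT from 0.23 to 0.04, it was 1.00 and 0.89, still called. Pck1 was the 79th gene by mean FPKM in BAT, the 175th in iWAT and the 164th in eWAT.

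Pck2 (chromosome 14, 56159103 to 56168854, plus strand) was low in every depot, with 1.34, 2.50 and 1.84 FPKM for BAT, 1.76, 1.27 and 1.50 for iWAT and 3.44, 2.09 and 3.19 for eWAT. BAT overlapped both white depots, with differences of 0.19 (SE 0.23, adjusted p = 0.496) against iWAT and -0.43 (SE 0.23, adjusted p = 0.168) against eWAT. All eWAT libraries were above all iWAT ones, which 19.5% of tested genes also were, and that difference of iWAT from eWAT was -0.62 (SE 0.23, adjusted p = 0.143). The values rest on about 14 to 176 reads per library.

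The windows upstream of the genes were compared because Pck1 rose and Pck2 was not called, and Aqp7 rose with Pck1. RefSeq promoter windows (table of build GRCm38.p6) were matched for 5 of the 6 genes, and the 250 bases before each start were found once each in mm9, at chr2:172978324-172978573 (plus strand) for Pck1, chr14:56158853-56159102 (plus strand) for Pck2 and chr4:40995170-40995419 (minus strand) for the upstream start of Aqp7. Capitals mark matches on either strand to ACGTCA (cyclic AMP response core), AGGTCA (nuclear receptor half-site), TCAAGGTCA (the same half-site, extended, which contains it), CCAAT and TATAAA.
Pck1: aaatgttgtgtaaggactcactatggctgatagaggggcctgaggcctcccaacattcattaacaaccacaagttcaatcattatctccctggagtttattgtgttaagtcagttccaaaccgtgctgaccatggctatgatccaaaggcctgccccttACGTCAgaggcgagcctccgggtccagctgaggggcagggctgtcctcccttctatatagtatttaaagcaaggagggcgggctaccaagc
Pck2: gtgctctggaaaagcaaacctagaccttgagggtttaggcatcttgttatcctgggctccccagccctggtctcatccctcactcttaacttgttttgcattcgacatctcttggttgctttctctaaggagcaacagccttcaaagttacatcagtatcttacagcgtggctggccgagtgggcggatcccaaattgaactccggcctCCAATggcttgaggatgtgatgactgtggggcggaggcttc
Aqp7: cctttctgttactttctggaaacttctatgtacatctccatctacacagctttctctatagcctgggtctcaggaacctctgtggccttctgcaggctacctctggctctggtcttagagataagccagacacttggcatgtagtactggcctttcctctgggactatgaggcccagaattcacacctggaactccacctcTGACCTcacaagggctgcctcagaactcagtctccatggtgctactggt
Pck1 held ACGTCA at 91 to 86 bases before the start, a run that 6.47% of 32851 windows of this length hold. Aqp7 held AGGTCA on the other strand at 49 to 44 bases, as 14.0% of windows do. Its second window, which overlaps the first and is not printed, held it at 223 to 218 and at 101 to 96 bases before the later start. Pck2 held CCAAT at 41 to 37 bases, as 33.8% do. The Gyk window and both Gpd2 windows held none of these runs. No window was available for Gpd1, which was not examined. A match is a run of letters, and binding was not measured.

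**Figure D2:**
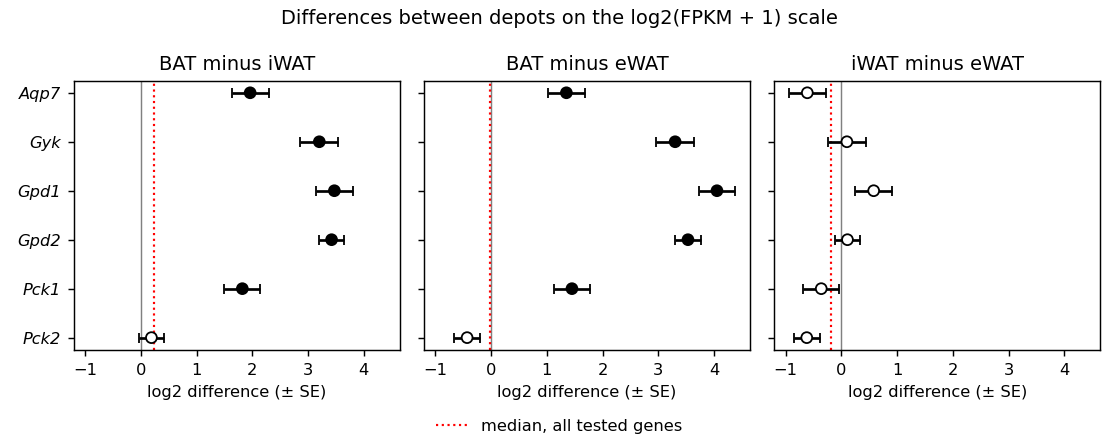
Difference between depots for each gene on the log2(FPKM + 1) scale (bars: SE from limma; filled: adjusted p under 0.05; dotted line: median of all 10374 tested genes). Aqp7, Gyk, Gpd1, Gpd2 and Pck1 are filled and right of 1 in both BAT panels, and no gene is filled for iWAT minus eWAT.

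Within BAT the levels ran, by mean, Pck1 (1419 FPKM), Gpd1 (1057), Aqp7 (100.5), Gpd2 (60.4), Gyk (24.1) and Pck2 (1.89), with no overlap between neighbours over the 3 libraries. In both white depots the first 4 kept this order without overlap, from Pck1 (438 ± 230.3 FPKM in iWAT and 520.3 ± 67.3 in eWAT, SD, n = 3) to Gpd2 (4.83 ± 1.37 and 4.34 ± 0.701). Gyk and Pck2 came last and overlapped there, at 1.62 ± 0.339 and 1.51 ± 0.249 in iWAT and 1.56 ± 1.03 and 2.90 ± 0.720 in eWAT.

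Ratios of FPKM within a library, which do not depend on its scaling, were taken as a description. Gpd1 stood 16.5, 19.1 and 17.2 times above Gpd2 in BAT, 26.2, 20.0 and 15.4 times in iWAT and 13.9, 15.8 and 14.1 times in eWAT. The shuttle pair kept a ratio of 13.9 to 26.2 in the 9 libraries, with BAT inside the iWAT range and above eWAT. Pck1 stood 1049, 594 and 741 times above Pck2 in BAT, against 129 to 397 times in the 6 white libraries. The log2 ratio of Gyk to Aqp7 was -2.73, -2.10 and -1.55 in BAT and -5.84 to -3.18 in white fat. That of Gyk to Pck1 was -6.60, -5.81 and -5.45 in BAT and -9.13 to -7.08 in white fat. Each BAT library had more Gyk per Aqp7 and per Pck1 than any white one.

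**Figure D3:**
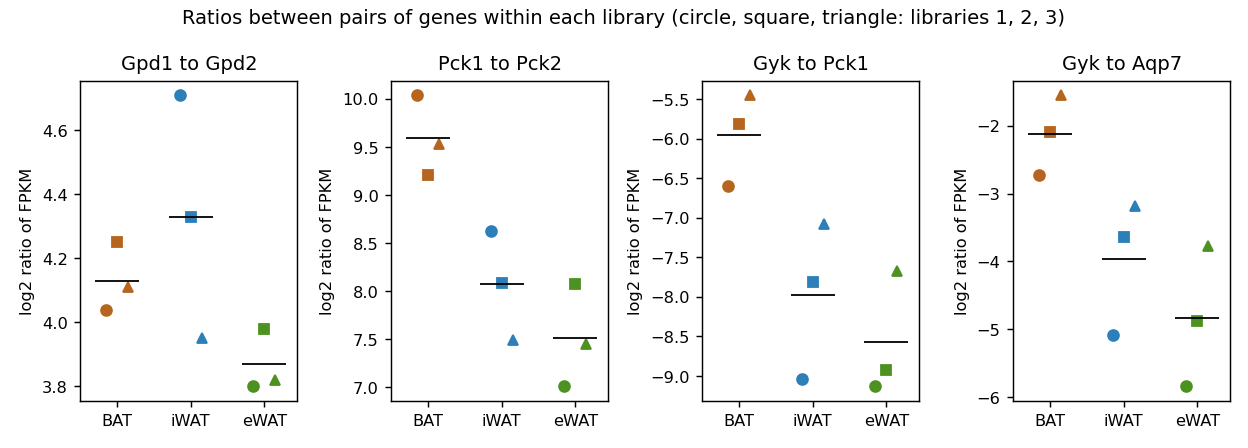
Log2 ratio of FPKM between pairs of genes in each library (circle, square and triangle for libraries 1, 2 and 3; line: mean, n = 3). Pck1 to Pck2, Gyk to Pck1 and Gyk to Aqp7 are higher in each BAT library than in each white one, and Gpd1 to Gpd2 overlaps between BAT and iWAT.

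Between the white depots no gene of the 6 was called (limma; 1, Pck2, had an unadjusted p under 0.05), and 1.74% of all tested genes were (24 higher in iWAT and 156 higher in eWAT; 33 and 82 with median-ratio scaling, 42 and 99 with quantile normalization). The balance turned to 45 higher in iWAT and 9 higher in eWAT with the adipocyte scaling described below, and to 5563 and 160 with it without iWAT 1. The differences of iWAT from eWAT were -0.61 (SE 0.33, adjusted p = 0.243) for Aqp7, 0.58 (SE 0.33, adjusted p = 0.260) for Gpd1 and -0.36 (SE 0.32, adjusted p = 0.442) for Pck1. Gyk (0.10, SE 0.34) and Gpd2 (0.11, SE 0.23) were nearer to 0. This rests on iWAT 1. Without it 2 of the 6 were called, both lower in iWAT: Aqp7 by -1.02 (adjusted p = 0.00562) and Pck1 by -0.76 (adjusted p = 0.0163), while 3315 of all genes were called. The geometric mean of the adipocyte genes Adipoq, Fabp4, Plin1 and Cidec moved with these values, and its part in them was not tested. It was 2544 FPKM in iWAT 1, 1007 and 1269 in iWAT 2 and 3, 2789.8 to 3692 in eWAT and 1411 to 1821 in BAT. With libraries scaled to it, Aqp7 and Pck1 turned to 0.44 (adjusted p = 0.127) and 0.73 (adjusted p = 0.0951), Gpd1 was called higher in iWAT (1.65, adjusted p = 0.0458), and the median of all genes moved from -0.18 to 0.63. With this scaling and without iWAT 1 together, Gyk (1.05), Gpd1 (1.64) and Gpd2 (1.11) were called higher in iWAT, against a median of 0.84. The summed brown adipocyte markers were also higher in each iWAT library (199.9 FPKM or more) than in each eWAT library (57.0 or less), unscaled, and their part was not tested. Under both, the 5 genes stayed called higher in BAT than in each white depot.

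Other genes of the pathway were taken from a list of 45, of which 39 were tested. Against iWAT, 22 were higher in BAT and 7 lower (median 0.96, beside 0.23 over all genes), where 34.5% of all tested genes were higher and 22.9% lower. Against eWAT, 16 were higher and 3 lower (median 0.49, beside -0.02), where 20.2% and 13.5% were, and with eWAT 1 alone 9 were higher and 3 lower. These counts were 24 and 3 with adipocyte scaling (4595 and 395 over all tested genes) and 26 and 3 with it without iWAT 1 (5369 and 466). With array weights they were 19 and 10 (3098 and 3527). Between iWAT and eWAT none was called in limma (14 had an unadjusted p under 0.05), while the replicate block called Pparg, the main adipogenic receptor, lower in iWAT (-1.19, adjusted p = 0.0351, against 0.0855 without the block; named after its values were seen). The direction depended on the setting, as did that of all tested genes. Without iWAT 1, 19 of the list were lower in iWAT and 1 higher (2859 and 456 over all tested genes). With array weights 13 were lower and 1 higher (1891 and 79). With adipocyte scaling none was called (9 lower and 45 higher over all tested genes). With it and without iWAT 1, 20 were higher and 1 lower (5563 and 160).

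**Figure D4:**
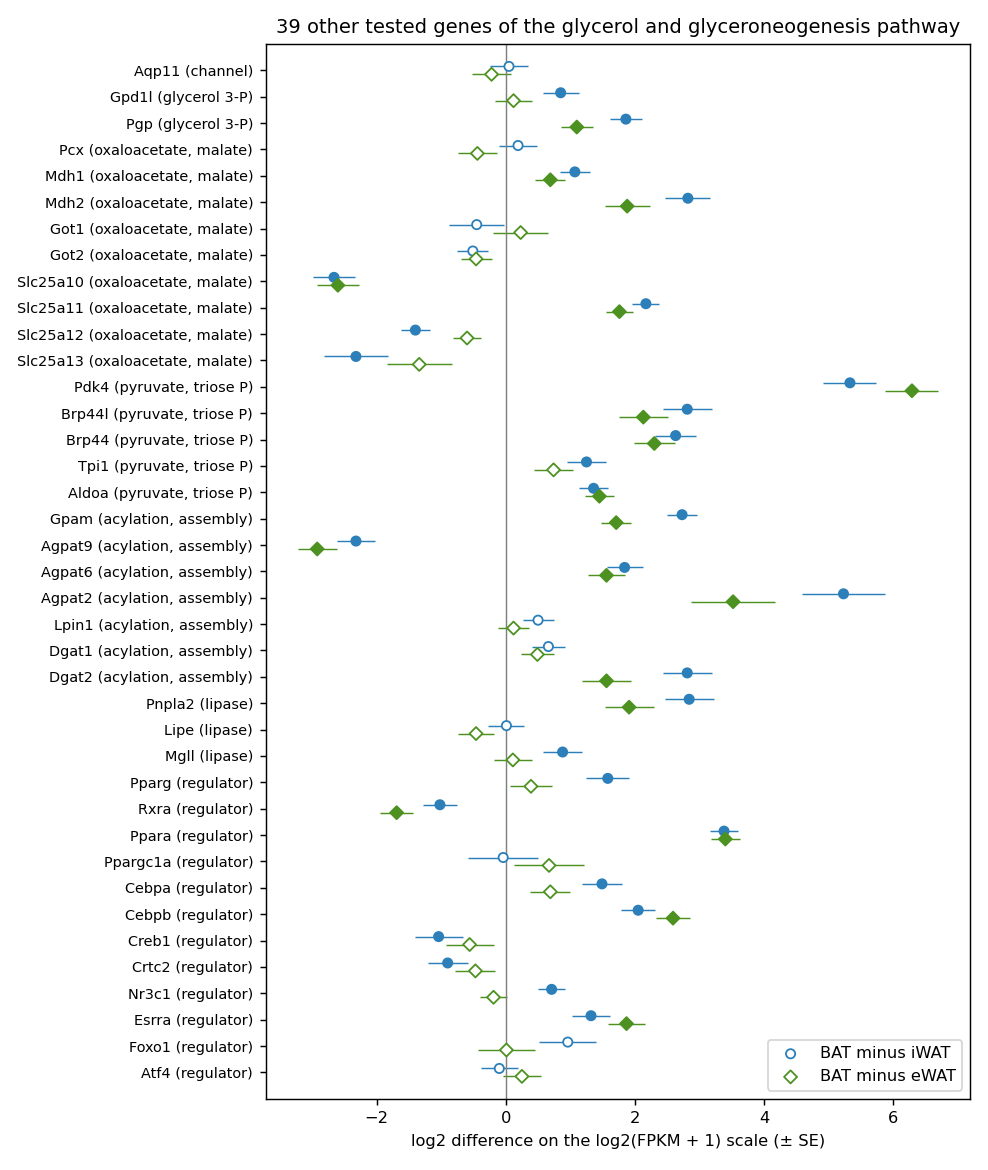
Log2 difference (± SE) of the 39 other tested pathway genes, BAT minus iWAT (circles) and BAT minus eWAT (diamonds), filled where the adjusted p was under 0.05. Pdk4 lies farthest right at 5.33 and 6.29, and Slc25a10, Agpat9 and Rxra are filled on the left in both comparisons.

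Upstream of Pck1, genes that supply or carry its substrate split. Malate dehydrogenase Mdh2 of the mitochondrion averaged 1036 ± 91.9 FPKM for BAT against 162 ± 98.0 for iWAT and 283 ± 51.9 for eWAT (SD, n = 3), higher in BAT by 2.82 and 1.88 (adjusted p = 0.000168 and 0.00241). The oxoglutarate and malate carrier Slc25a11 was higher by 2.17 and 1.76, and the cytosolic Mdh1 by 1.07 and 0.69 (adjusted p = 0.00316 and 0.0388). The last value lost its call in 11 of 20 alternatives, among them the replicate block (adjusted p = 0.0521), and the first with quantile normalization (0.29, adjusted p = 0.206). The dicarboxylate carrier Slc25a10 was lower in BAT, averaging 5.09 ± 1.52 FPKM against 39.4 ± 19.8 (iWAT) and 35.1 ± 2.73 (eWAT; differences -2.66 and -2.60, adjusted p = 0.000158 and 0.000218). Pyruvate carboxylase Pcx, which makes oxaloacetate, averaged 69.4 ± 2.94 (BAT), 64.9 ± 30.4 (iWAT) and 95.1 ± 14.2 FPKM (eWAT) and was not called; it is named outside the rule, after its values were seen. Of the 9 genes of this role, 3 were higher and 3 lower in BAT against iWAT, and 3 and 1 against eWAT. Over all tested genes, 34.5% were higher and 22.9% lower against iWAT, and 20.2% and 13.5% against eWAT.

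BAT exceeded iWAT for all 5 genes of pyruvate and triose phosphate handling and exceeded eWAT for 4. Over all tested genes, 34.5% and 20.2% were called higher in BAT. Pdk4, the kinase that switches off pyruvate dehydrogenase, averaged 489 ± 44.9 FPKM for BAT, 11.3 ± 2.74 for iWAT and 6.14 ± 4.15 for eWAT (differences 5.33 and 6.29, adjusted p = 1.11e-05 and 4.29e-06). The mitochondrial pyruvate carrier subunits Brp44l and Brp44, now called Mpc1 and Mpc2, were higher by 2.81 and 2.63 against iWAT and by 2.13 and 2.30 against eWAT. Aldolase Aldoa was higher by 1.36 and 1.45. Pgp, a phosphatase that can release glycerol from glycerol 3-phosphate, averaged 103 ± 6.59 (BAT), 28.3 ± 7.52 (iWAT) and 48.3 ± 10.5 FPKM (eWAT; differences 1.86 and 1.10, adjusted p = 0.000242 and 0.00691).

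Among enzymes that acylate glycerol 3-phosphate, the members differed in direction. The mitochondrial acyltransferase Gpam averaged 14.0 ± 2.08 (BAT), 1.26 ± 0.367 (iWAT) and 3.57 ± 0.620 FPKM (eWAT; differences 2.73 and 1.71, adjusted p = 1.63e-05 and 0.000277). Agpat9, now Gpat3 and an acyltransferase of the endoplasmic reticulum, averaged 7.22 ± 3.15 (BAT), 38.3 ± 7.34 (iWAT) and 57.9 ± 4.79 FPKM (eWAT; differences -2.32 and -2.92, adjusted p = 0.000208 and 5.92e-05). Agpat6, now Gpat4, was higher in BAT by 1.84 and 1.56 (adjusted p = 0.000492 and 0.00179) and is named outside the rule, after its values were seen. Later in the route, Agpat2, which adds the next acyl chain, was higher by 5.23 and 3.52, and Dgat2, which completes triglyceride, by 2.81 and 1.56. Of 7 tested genes of this role, 4 were higher and 1 lower in BAT in each comparison. Over all tested genes, 34.5% were higher and 22.9% lower against iWAT, and 20.2% and 13.5% against eWAT. Of the 3 tested lipases of triglyceride breakdown, 2 were called higher in BAT against iWAT and 1 against eWAT, and none lower. Over all tested genes, 34.5% and 20.2% were called higher. Pnpla2 was higher by 2.84 and 1.91. Lipe (0.01 and -0.46, not called) and Mgll are named outside the rule, after their values were seen. Mgll was higher by 0.88 against iWAT (limma adjusted p = 0.0273) and not called against eWAT (0.11). The former lost its call with quantile normalization (0.43, adjusted p = 0.192), among other settings.

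Of 12 regulators, BAT had 6 higher and 3 lower against iWAT, and 3 higher and 1 lower against eWAT. Over all tested genes, 34.5% were higher and 22.9% lower against iWAT, and 20.2% and 13.5% against eWAT. Of the 6 higher against iWAT, Nr3c1 (0.71, limma adjusted p = 0.0150), named after its values were seen, was among the less stable. It lost its call with quantile normalization (0.49, adjusted p = 0.0695), under both adipocyte scalings and without BAT 2. Of the 3 lower against iWAT, Creb1 and Crtc2, named after their values were seen, lost their call without any 1 of BAT 1, BAT 2, BAT 3, iWAT 2 or iWAT 3 (without BAT 1, adjusted p = 0.0621 and 0.0658), which left Rxra. The fatty acid receptor Ppara averaged 18.3 ± 0.328 (BAT), 0.872 ± 0.341 (iWAT) and 0.854 ± 0.314 FPKM (eWAT; differences 3.38 and 3.40, adjusted p = 5.33e-06 and 4.12e-06). Cebpb, a factor induced early in adipogenesis, was higher by 2.05 and 2.59, and the estrogen-related receptor Esrra by 1.32 and 1.87, the former losing its call under adipocyte scaling (1.23, adjusted p = 0.0648) and also without iWAT 1 (0.67, adjusted p = 0.139). Rxra, the partner of PPAR receptors on DNA, was lower in BAT, averaging 9.81 ± 0.892 FPKM against 21.5 ± 6.78 (iWAT) and 34.1 ± 5.24 (eWAT; differences -1.02 and -1.69, adjusted p = 0.00797 and 0.000708). With eWAT 1 as the lone eWAT library, 7 of these genes lost their call against eWAT, at differences of 0.76 for Pgp, 0.68 for Mdh1, 1.6 for Mdh2, 2.10 for Brp44l, 1.32 for Agpat6, 1.45 for Dgat2 and 2.0 for Pnpla2.

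The genes whose profile over the 9 libraries lay nearest to each of the 6 were listed as a description; the points share depot and depth. For Gyk they were Tob2, at 53.3 to 70.6 FPKM in BAT and 5.41 to 7.88 in white fat (root mean square difference 0.29 log2 units), Arhgdig (0.34), which was listed at 0 in all white libraries, and Pde4d (0.36). Near to Aqp7 were the leucine breakdown enzyme Auh (0.10) and the interferon receptor subunit Ifnar2 (0.12). Nearest to Gpd1 were Adssl1 (0.24), the fatty acid oxidation subunit Hadhb (0.28) and Stom (0.30). Nearest to Gpd2 were Clic5 (0.16), Cpn2 (0.16) and 2810432L12Rik (0.17). These 3 were near 0 in white fat (at most 0.321, 0.284 and 0.539 FPKM), where Gpd2 was at 3.56 to 6.37. Their likeness to Gpd2 thus holds on the log2(FPKM + 1) scale and not in fold change. Nearest to Pck1 were Mrpl35 (0.13), the insulin-regulated glucose transporter Slc2a4 (0.16), at 97.3 to 120.1 FPKM in BAT and 21.4 to 47.8 in white fat, and Zfp617 (0.17). Pck2 had H47 (0.14), Sec13 (0.15) and Orc6 (0.17), each with its highest mean in eWAT. Among the 6 themselves, Aqp7 and Pck1 were 0.23 apart and Gpd1 and Gpd2 0.32, while Gpd1 and Pck2 were 1.94 apart.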

How the data were processed

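Ribosome-bound RNA of 9 libraries, 3 per depot, was analysed. The FPKM values are as deposited by the authors; the submitters' processing notes name TopHat, Cufflinks and build mm9, and no unit stands in the header, so FPKM is read from the naming of Cufflinks and from fractional values with unequal sums. Annotation, filters and strand setting are not given in the sources used here. The table held 22996 lines for 22527 symbols; each of the 6 genes had 1 line. The 10374 genes that reached 1 FPKM in 3 or more libraries entered the test, as log2(FPKM + 1), in limma 3.58.1 (R 4.3.3, intensity trend, 1 fit of 9 libraries, Benjamini-Hochberg over all tested genes, calls at an adjusted p of 0.05), after the script was tested on simulated data. All 6 genes passed the filter. Depth was estimated from single-read steps among low values of genes with 1 transcript of at least 1000 bases, with a length offset of 200 bases; 44.5% to 63.6% of these values came within 0.15 of whole reads. Python 3.11.15 was used for the rest.

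Same-numbered iWAT and eWAT libraries deviated from their group means together (correlations 0.634, 0.534 and 0.165 across genes). Unlike numbers gave -0.576 to 0.228, and iWAT 2 with eWAT 3 (0.228) exceeded iWAT 3 with eWAT 3. Deviations from a depot's own mean cancel within that depot, so positive same-number values by themselves lower the unlike-number ones. These values therefore cannot decide whether libraries were paired, and the labels state no pairing. Library 1 had the greatest estimated depth in both depots (4.65 and 16.0 M reads), and its part was not tested. With BAT the same numbers gave -0.388 to 0.121. The genes and lists were chosen with earlier results of these data known. Other pathway genes are named where called in BAT against both white depots in the same direction, or in iWAT against eWAT, up to 4 per role by mean size. Genes of like pattern are the 3 tested genes with the smallest root mean square difference of centred log2(FPKM + 1) profiles. One of them is not reported here. Results were recomputed with the replicate block, without each library, without both eWAT 2 and 3, with array weights, with only the depots compared, with a pseudocount of 0.1, unfiltered, with a mean of 5 FPKM or more required, and with median-ratio or quantile scaling. Scaling of the libraries to the geometric mean of Adipoq, Fabp4, Plin1 and Cidec, with and without iWAT 1, was added after the data were seen.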

Additional observations from a re-analysis of the deposited data

How the results depend on the processing

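The 5 genes called higher in BAT kept direction and call against iWAT in all 20 alternatives. Against eWAT they did so in all but the fit without eWAT 2 and 3, where 3 of the 6 genes were called and Aqp7 and Pck1 were not. That fit has 1 eWAT library, assumed to vary like the other groups; Pck2 was below the filter of a mean of 5 FPKM. The replicate block changed no call of the 6 genes (Pck1 against eWAT 1.45) and gave 6080, 3625 and 221 calls over all genes, against 5961, 3492 and 180. Values that turned sign had no call: Pck2 in BAT minus eWAT (0.25 with adipocyte scaling, 0.24 also without iWAT 1) and minus iWAT (-0.05), and in iWAT minus eWAT Gyk (-0.07 with array weights, 0.00 without iWAT 3, -0.13 without eWAT 1), Gpd2 (-0.03 with array weights, -0.07 without iWAT 1), Aqp7 (0.44 and 0.41 under the 2 adipocyte scalings), Pck1 (0.73 and 0.72) and Pck2 (0.12 and 0.29). Of the 6 genes, 2 were called between iWAT and eWAT with array weights, whose estimate stopped before it converged, 1 with adipocyte scaling and 3 with that scaling without iWAT 1, and leaving out 1 library gave 0 to 2. The cause of these changes was not tested.

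Calls over all genes with a mean of at least 5 FPKM, where fewer genes were tested, were 3783, 2244 and 79 (BAT against iWAT, BAT against eWAT, iWAT against eWAT). BAT against eWAT had 6625 with array weights, 1411 without eWAT 2 and 3, 4990 with adipocyte scaling (4595 higher in BAT and 395 lower, against 2094 and 1398) and 5835 with it without iWAT 1 (5369 and 466), and 2141 to 4422 when 1 library was left out; BAT against iWAT had 4289 to 6829 then, and 6157 with adipocyte scaling without iWAT 1 (2976 higher in BAT and 3181 lower, against 3583 and 2378). Between iWAT and eWAT there were 90 with a pseudocount of 0.1, 93 with no filter, 115 with median-ratio scaling, 1970 with array weights, 27 without eWAT 2 and 3, 54 with adipocyte scaling, 5723 with it without iWAT 1, 45 when fitted alone, and 15 (without eWAT 3) to 3315 (without iWAT 1) when 1 library was left out. A pseudocount of 1 moved the mean log2 ratio of Gpd1 to Gpd2 in eWAT from 3.87 to 3.59, of Pck1 to Pck2 from 9.59 to 8.96 in BAT and from 8.07 to 7.33 in iWAT, and of Gyk to Pck1 in eWAT from -8.57 to -7.73. With a mean of at least 5 FPKM, 13 of the 18 genes of like pattern were listed again.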
